A study of Mus musculus with 14 samples.

Results

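Arc and 7 other activity-induced effector genes (Homer1, Nptx2, Vgf, Scg2, Pcsk1, Inhba and Ptgs2) were followed across RNA-seq libraries of the mouse dorsal hippocampus. The members were chosen by name, as the rows of both count tables that carry these 8 gene symbols, among 26570 genes in the table of the basal experiment and 25933 in that of the learning experiment. All 8 members passed the filter on low counts in both tables, as did 16324 and 16820 genes in all. The study asked how Tau pathology alters hippocampal transcription at rest and after spatial learning, and what an activator of the CBP/p300 acetyltransferases does to it.

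All mice were male and 8 months of age, of the strain C57BL6 by the labels and of a C57BL6/J background by the study's methods. THY-Tau22 mice are heterozygous for a transgene that expresses mutated human Tau in neurons under the Thy1.2 promoter. The basal experiment compared 3 WT and 2 THY-Tau22 mice in the resting state, without training. Whether these mice received an injection is not stated in the labels. The learning experiment held 9 mice. WT VEH mice (n = 2) received saline and were trained in the Morris water maze, TAU VEH mice (n = 2) were THY-Tau22 mice that received CSP, a carbon nanosphere without drug, and were trained, and TAU MOL mice (n = 2) were THY-Tau22 mice that received CSP-TTK21, the same carrier with the CBP/p300 activator TTK21, and were trained. WT VEH_HC mice (n = 3) received saline and stayed in the home cage. Trained mice were killed 1 h after the last trial. No THY-Tau22 mouse of the learning experiment stayed in its home cage and none received saline, so genotype and carrier cannot be told apart after training. Where trained THY-Tau22 mice are compared with WT VEH_HC mice, training, genotype and treatment all differ and cannot be told apart. The study left 3 further libraries out after sequencing, and these were not analysed here.

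Neuronal activity switches on early genes in waves. Early transcription factors such as Fos and Egr1 come first, and effector genes, whose products act at the synapse or are secreted, come with or after them. Arc codes for a protein that drives AMPA receptor endocytosis at active synapses and that is needed for lasting memory. Homer1 codes for postsynaptic scaffold proteins and, in its short activity-induced form Homer1a, for a protein that uncouples that scaffold. Nptx2 codes for a secreted pentraxin that clusters AMPA receptors, and Vgf and Scg2 for granins, the precursors of neuropeptides. Pcsk1 is a prohormone convertase that cuts such precursors, Inhba is the activin A subunit, and Ptgs2 (COX-2) is the inducible prostaglandin synthase. Many of these genes carry a cAMP response element (CRE), a site for the factor CREB, which recruits CBP.

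Promoter stretches are shown because the compound acts on CBP, and only for members whose window held a CRE or several copies of its core. Of the 8 members, 5 had a promoter window in the RefSeq table of build GRCm38.p6, from 250 bases before to 50 bases after a transcription start. Windows for Arc, Nptx2 and Vgf were not used here. Each stretch below is given 5′ to 3′ with its place in mm9, found by a unique exact match, and capitals mark the CRE TGACGTCA or its core TGACG.
Homer1 (bases -100 to -1, chr13:94073612-94073711, + strand): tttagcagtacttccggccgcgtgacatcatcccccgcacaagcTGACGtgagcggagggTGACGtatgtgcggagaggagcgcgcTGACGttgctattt
Pcsk1 (bases -150 to -41, chr13:75227155-75227264, + strand): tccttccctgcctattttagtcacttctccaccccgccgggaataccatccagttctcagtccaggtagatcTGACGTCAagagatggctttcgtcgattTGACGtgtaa
Scg2 (bases -150 to -51, chr1:79436652-79436751, - strand): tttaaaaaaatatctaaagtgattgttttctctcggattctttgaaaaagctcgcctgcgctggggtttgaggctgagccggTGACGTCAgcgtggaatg

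Counted from the RefSeq start, whose first transcribed base is +1, the full CRE lay at -78 to -71 in Pcsk1 and at -68 to -61 in Scg2. Both strands were searched. The full CRE occurred in 1.79% of 32851 mouse windows of the same length, and the core, which every full CRE also contains, in 20.8%. Homer1 held 3 cores, the first bases of which lay at -56, -40 and -14, and Pcsk1 a further core at -50. Ptgs2 held a core on the other strand, shortly downstream of the RefSeq start. The core of Ptgs2 lay before the start of the GENCODE gene model, which begins 93 bases downstream of the RefSeq start. The CRE of Scg2 spanned the start of its GENCODE model, which begins 64 bases further upstream. Inhba held a TATAAA box at -91 (13.6% of windows), and no CArG box (1.63% of windows) and no AP-1 motif TGANTCA (7.81% of windows) occurred in the windows of the 5 members. The second Homer1 window, 4277 bases downstream of the first, held none of these motifs. These matches describe letters in a window and do not show binding.

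**Figure D1:**
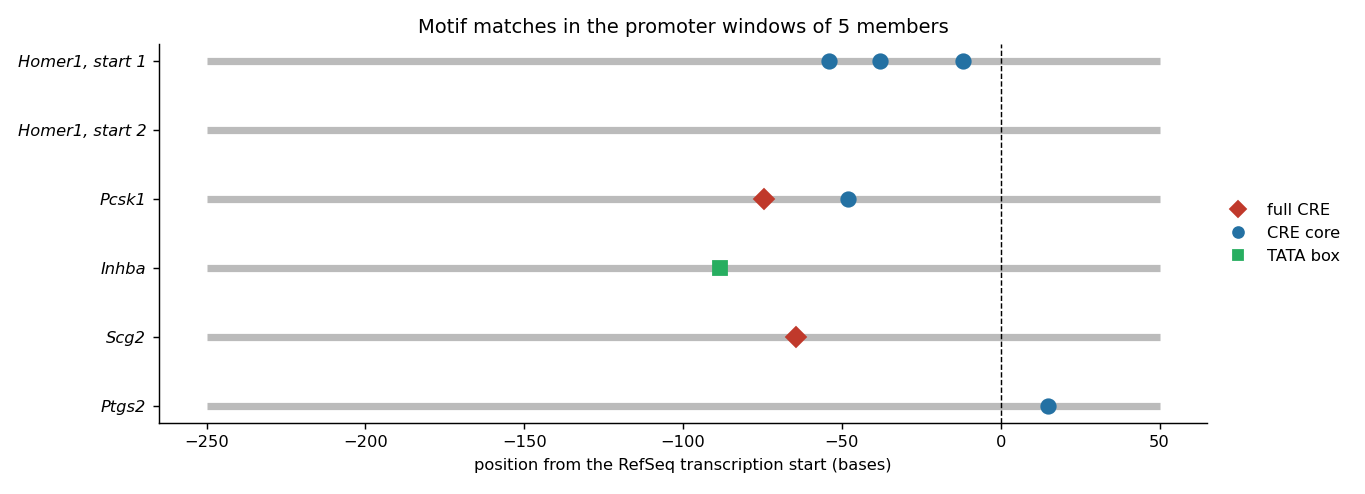
Positions of motif matches (x axis, bases from the RefSeq transcription start) in the 6 promoter windows of 5 members, drawn as grey bars from 250 bases before to 50 bases after the start. Red diamonds are full CREs, blue circles CRE cores outside a full CRE and green squares TATA boxes. Pcsk1 and Scg2 carry the full CRE.

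Libraries held between 28639121 and 37681155 counts on genes in the basal experiment and between 24693713 and 52180305 in the learning experiment. Levels are given as CPM, in which a library's counts are set relative to its TMM-scaled total. They were tested by edgeR (quasi-likelihood), and p-values were adjusted after Benjamini and Hochberg over every gene tested in a table. A call needed an adjusted p below 0.05 and a change of more than 0.2 on the log2 scale in either direction. Nothing in the labels tells whether replicates differed in litter or day, and p-values measure the spread between these mice. In these bulk samples, fewer cells that express a gene and less RNA per cell cannot be told apart. The markers of hippocampal neurons, listed as pan-neuronal, CA1, CA3 and dentate granule cell markers, that the table holds all had counts in every group.

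Libraries differed in ways that touch the members. The log2 ratio of each library to the mean of its experiment varied with the GC content of genes. Taken over genes, which do not count as replicates, Spearman's rho of the pair ran from 0.46 to 0.50 in WT VEH_HC, from 0.098 to 0.30 in WT VEH and from -0.67 to -0.44 in the TAU VEH and TAU MOL libraries. In the basal experiment it was 0.52 in one THY-Tau22 library and -0.64 in the other, and between 0.074 and 0.35 in WT. The exons of the members range in GC content from 39.3% for Homer1, 40.5% for Ptgs2, 44.0% for Pcsk1 and 46.6% for Scg2 to 54.9% for Inhba, 58.3% for Nptx2, 59.0% for Arc and 64.8% for Vgf, around a median of 50% over the genes tested. Values of the members once the dependence on GC content and exonic length was removed library by library (called the correction) are therefore given too, singly or as a range. The summed level of 14 choroid plexus markers ranged from 84.7 to 247 CPM in WT VEH_HC, from 1610 to 2490 in WT VEH, from 249 to 296 in TAU VEH and from 730 to 801 in TAU MOL, and from 286 to 447 in basal WT and 412 to 1330 in basal THY-Tau22. That of 6 CA1 pyramidal cell markers was lower in TAU VEH (609 to 647 CPM) than in WT VEH (1020 to 1100), with 886 to 888 in TAU MOL. The part of these differences in the results was not tested. Values from a fit with the choroid plexus score as a covariate are given too. In the learning experiment the summed levels of the groups do not overlap, so that fit cannot set the score apart from the group. Scaling by library size alone in place of TMM moved the share of lower genes among those called from 74.9% to 28.4% between TAU VEH and WT VEH, from 89.1% to 30.1% between TAU MOL and WT VEH, and against WT VEH_HC from 52.9% to 23.5% in TAU VEH, from 51.6% to 20.6% in TAU MOL and from 36.3% to 25.3% in WT VEH.

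Compared per length of exon, the members span a wide range. In WT VEH_HC, Vgf was highest with 136 ± 12.9 RPKM (SD, n = 3), followed by Arc with 47.2 ± 0.523 and Scg2 with 44.1 ± 5.43, whose libraries overlapped. Nptx2 had 16.0 ± 1.48 RPKM, Homer1 5.44 ± 0.149, Ptgs2 4.12 ± 0.0774, Pcsk1 1.51 ± 0.0429 and Inhba 0.596 ± 0.0674 (SD, n = 3), and none of these neighbours overlapped. Homer1 is understated on this scale, because its length of 11340 bases is the union of the exons of 13 transcripts. In WT VEH the order was the same, but Arc had risen to 131 ± 11.8 RPKM (SD, n = 2) and its libraries overlapped those of Vgf at 136 ± 3.83.

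**Figure D2:**
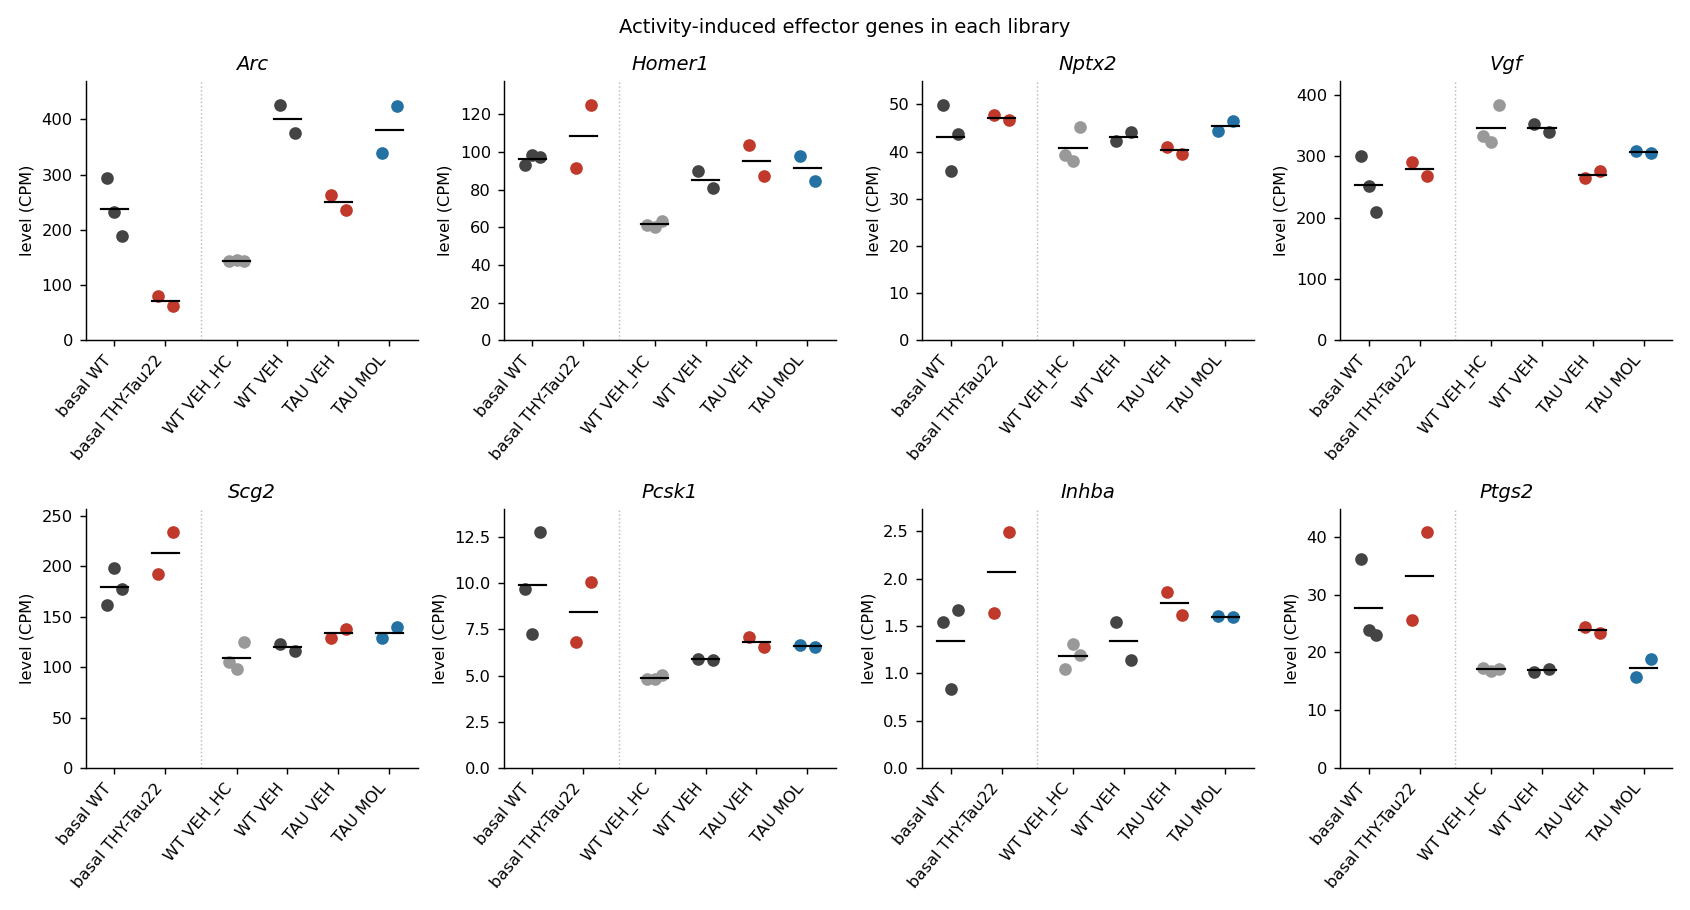
Level of each member (y axis, CPM, starting at 0) in each library of the 6 groups (x axis). Points are libraries, black lines group means, and the dotted line separates the basal from the learning experiment, which were scaled apart. Arc is the member with the widest range, from 61.7 to 427 CPM.

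Arc (ENSMUSG00000022602, chr15:74499513-74503000, - strand, 3 exons) was low in untrained THY-Tau22 mice. The basal WT libraries had 293, 233 and 189 CPM and the THY-Tau22 libraries 80.7 and 61.7 CPM. Both THY-Tau22 libraries were below every WT library. The log2 fold change was -1.74 (standard error 0.20, 95% confidence interval -2.18 to -1.30, adjusted p = 0.0261, edgeR), which leaves 0.299 times the WT level. Arc was the single member called lower, where 0.0184% of all genes tested were called lower and 0.00613% higher, 4 genes in all. It was also the single member whose libraries did not overlap between the genotypes, which held for 18.5% of all genes in either direction. With the correction for GC content and length, the log2 fold change was -1.63 (adjusted p = 0.00861). The call was lost without WT replicate 2 (-1.74, adjusted p = 0.107, edgeR) and with the choroid plexus score as a covariate (-1.62, adjusted p = 0.104). It was also lost without either THY-Tau22 library, which leaves 1 in that group (-1.93 without replicate 1 and -1.56 without replicate 2). The fold change kept its size throughout.

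The other 7 members were not called between basal THY-Tau22 and WT mice, with log2 fold changes from -0.23 for Pcsk1 to 0.62 for Inhba. Their median, with Arc, was 0.16, beside -0.01 over all genes tested. Homer1 had 93.3, 98.3 and 97.3 CPM in WT and 91.7 and 125 CPM in THY-Tau22 mice. The granins lay close to WT, Scg2 with 162 to 199 CPM against 192 to 234 and Vgf with 209 to 300.5 against 268 to 291. Nptx2 ranged from 35.8 to 49.9 CPM in WT and from 46.7 to 47.7 in THY-Tau22 mice, and Ptgs2 from 23.1 to 36.2 and from 25.6 to 40.8. Inhba, the member with the fewest counts, had 29 to 57 counts per WT library and 53 and 74 per THY-Tau22 library, and its interval of -0.13 to 1.36 on the log2 scale leaves a wide range open. The intervals on the log2 scale were -0.77 to 0.31 for Pcsk1, -0.26 to 0.77 for Ptgs2, -0.14 to 0.48 for Homer1, -0.19 to 0.45 for Nptx2, -0.05 to 0.55 for Scg2 and -0.20 to 0.48 for Vgf. After correction none of these 7 was called, with log2 fold changes from -0.28 for Pcsk1 to 0.74 for Inhba and Homer1 turned to -0.03. None of the cell type markers was called in the basal experiment, where 4 of 16324 genes were called, so this does not show a like make-up. Median log2 fold changes were 0.89 for choroid plexus, -0.69 for thalamus, -0.48 for oligodendrocyte and -0.01 for pan-neuronal markers. Libraries did not overlap for 3 of 5 astrocyte and 3 of 5 microglia markers, beside 18.5% of all genes. The part of these markers was not tested.

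Training raised Arc in WT mice. Home cage mice (WT VEH_HC) had 144, 146 and 143 CPM and trained WT VEH mice 427 and 375 CPM. The groups were far apart, with a spread of 1.11% (coefficient of variation) among the home cage libraries. Arc rose 2.78-fold (log2 fold change 1.47, standard error 0.092, 95% confidence interval 1.27 to 1.67, adjusted p = 1.64e-05, edgeR), and by 1.51 on the log2 scale after the GC and length correction. Homer1 (ENSMUSG00000007617, chr13:94073712-94174917, + strand) rose as well, from 61.3, 60.2 and 63.5 CPM to 89.7 and 80.8 CPM. Its log2 fold change was 0.47 (standard error 0.088, adjusted p = 0.0139), and 0.36 after correction (adjusted p = 0.0208). Counts per gene sum the short and long Homer1 transcripts, so the share of Homer1a in this rise was not measured. Without WT VEH replicate 1 Homer1 was not called (0.39, adjusted p = 0.215).

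Thus 2 of 8 members were called higher and none lower after training of WT mice, where 5.35% of all genes were called higher and 3.05% lower. The libraries of 3 of 8 did not overlap, beside 43.8% of all genes, and the median log2 fold change of the members was 0.16 beside 0 over all genes. In all, 1413 genes were called, but far fewer without either WT VEH library, which leaves 1 library in that group. The third was Pcsk1 (ENSMUSG00000021587, chr13:75227274-75269946, + strand), with 4.81, 4.81 and 5.05 CPM in home cage and 5.90 and 5.85 CPM in trained mice (log2 fold change 0.26, adjusted p = 0.133). Vgf, Ptgs2, Nptx2, Scg2 and Inhba overlapped between the groups, with log2 fold changes between -0.01 and 0.18. Without WT VEH_HC replicate 3, Scg2 was called (0.23, adjusted p = 0.0474). For Vgf the 95% confidence interval of the log2 fold change was -0.17 to 0.16, for Ptgs2 -0.20 to 0.17 and for Nptx2 -0.09 to 0.25. In the fit with the choroid plexus score as a covariate, no gene was called, and Arc stood at 1.5 (adjusted p = 0.978) and Homer1 at 0.18 (adjusted p = 0.985). Since the score separates these groups, the fit cannot set its part apart from that of training. Of the 14 choroid plexus markers, 14 were called higher in WT VEH, as were 2 of 7 interneuron markers, and 2 of 8 dentate granule cell markers lower. After correction the 6 members other than Arc and Homer1 were not called, with log2 fold changes from -0.19 for Ptgs2 to 0.21 for Inhba.

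**Figure D3:**
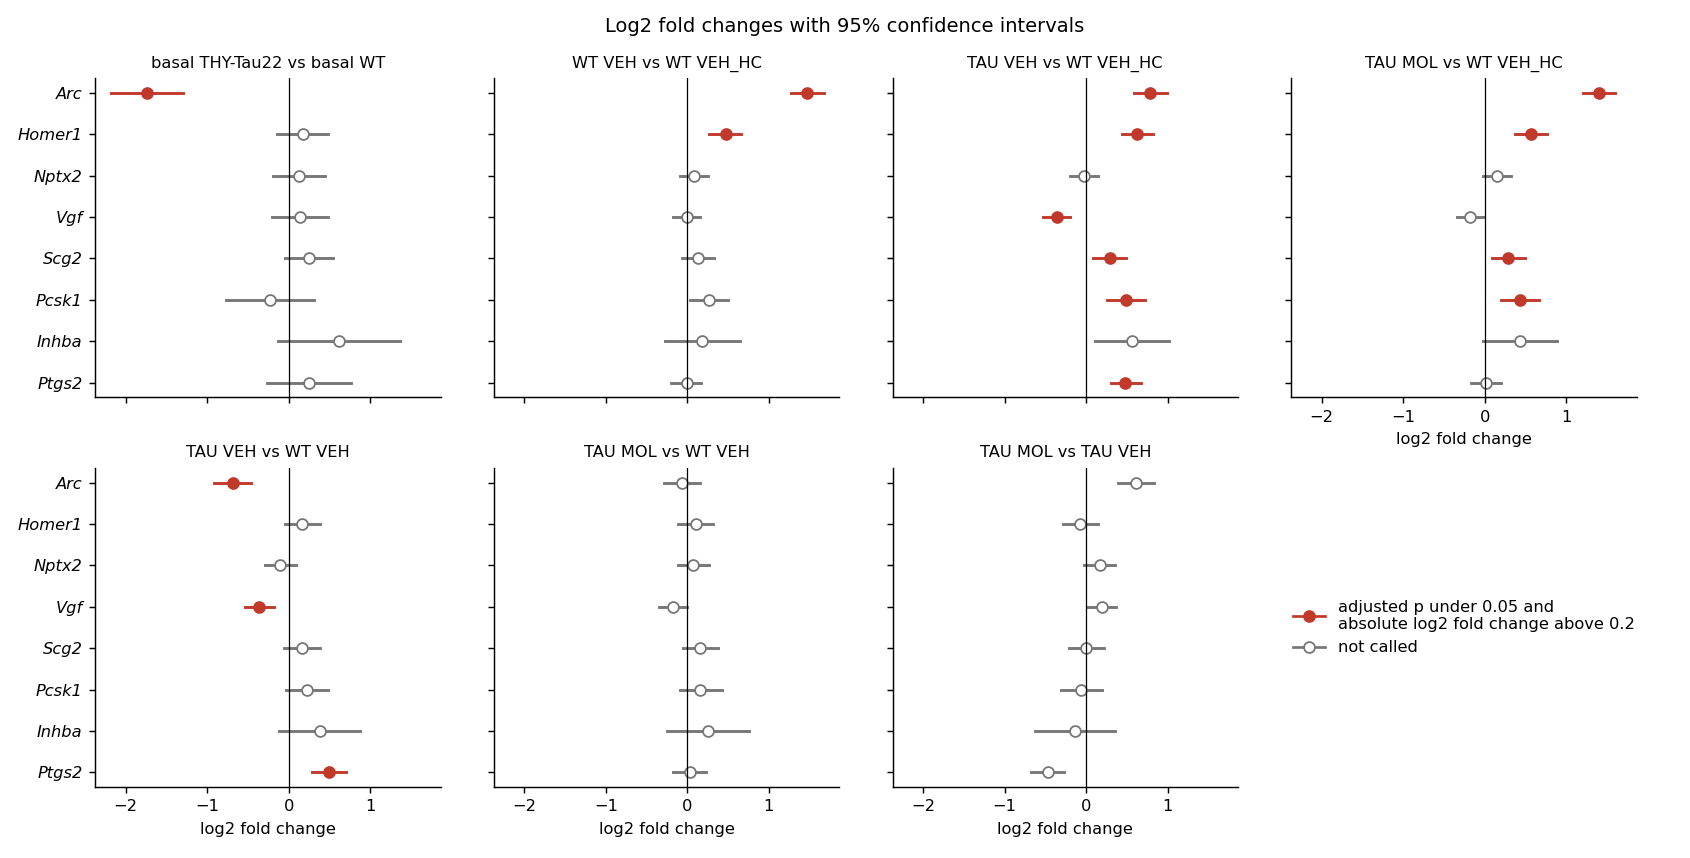
Log2 fold change of each member (x axis) in the 7 comparisons, with 95% confidence intervals as lines. Filled red points passed both limits and open grey points did not. Arc lies left of 0 in the 3 comparisons of THY-Tau22 with WT mice of the same training state, by -1.74, -0.68 and, not called, -0.07 (0.15 after correction), and right of 0 in each comparison with the home cage.

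Trained THY-Tau22 mice had less Arc than trained WT mice. TAU VEH libraries had 263 and 236 CPM, both between the home cage and the WT VEH libraries. Against WT VEH the log2 fold change was -0.68 (standard error 0.10, 95% confidence interval -0.91 to -0.46, adjusted p = 0.00167, edgeR), or 0.623 times the level of trained WT mice. Against WT VEH_HC it was 0.79 (standard error 0.092, adjusted p = 0.000225), or 1.73-fold. Both contrasts share the TAU VEH libraries. Correction for GC content and length brought the difference from WT VEH to -0.38 (adjusted p = 0.0888), no longer called, and that from WT VEH_HC to 1.13 (adjusted p = 0.000329), still called. With the choroid plexus score as a covariate it was -0.71 against WT VEH (adjusted p = 0.423). In the same comparison 4 of 6 markers of CA1 pyramidal cells and 3 of 6 of neocortex and subiculum (183 to 193 CPM in WT VEH, 135 to 149 in TAU VEH, summed) were called lower. So were 13 of 14 choroid plexus, 2 of 5 pan-neuronal, 2 of 7 interneuron and 2 of 6 hippocampal pyramidal and granule neuron markers. Called higher were 1 of 6 hippocampal pyramidal and granule neuron markers and 3 of 5 astrocyte markers (2480 to 2830 and 3450 to 3500 CPM). Their part in the result was not tested.

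Vgf and Ptgs2 also differed between TAU VEH and WT VEH, in opposite directions. Vgf (ENSMUSG00000037428, chr5:137506165-137509221, + strand, 2 exons) had 353 and 339 CPM in WT VEH and 264 and 275 CPM in TAU VEH mice, and both TAU VEH libraries were also below the home cage range of 323 to 384 CPM. Its log2 fold change against WT VEH was -0.36 (standard error 0.082, adjusted p = 0.0126). Vgf has the highest GC content of the members, and after correction the sign turned to 0.08 (adjusted p = 0.551). Ptgs2 (ENSMUSG00000032487, chr1:151947254-151955140, + strand, 10 exons) had 16.6 and 17.2 CPM in WT VEH and 24.4 and 23.3 CPM in TAU VEH mice, with 17.4, 16.7 and 17.1 CPM in the home cage. Its log2 fold change against WT VEH was 0.50 (standard error 0.094, adjusted p = 0.00455), and 0.34 after correction (adjusted p = 0.07). Without TAU VEH replicate 1, Arc alone stayed called, with Vgf at -0.33 (adjusted p = 0.116) and Ptgs2 at 0.46 (adjusted p = 0.058). Vgf was also lost without WT VEH replicate 1 (adjusted p = 0.0961) and without TAU VEH replicate 2 (adjusted p = 0.0575), and with scaling by library size alone (-0.21, adjusted p = 0.0706), when Homer1 (0.31, adjusted p = 0.0427), Pcsk1 (0.37, adjusted p = 0.0406) and Scg2 (0.31, adjusted p = 0.04) were called higher.

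In that comparison 1 of 8 members was called higher and 2 lower, where 3.61% of all genes were called higher and 10.8% lower, and after correction none of the 8 was called, with Arc the largest drop. Libraries of 7 of 8 members did not overlap, beside 57.9% of all genes. In all, 2423 genes were called, and fewer when any TAU VEH or WT VEH library was left out. That leaves 1 library in a group, so the fall does not show that the shares rest on a single library. The median log2 fold change was 0.16, and 0 over all genes. Homer1 overlapped, with 104 and 87.0 CPM in TAU VEH (log2 fold change 0.16, 95% confidence interval -0.05 to 0.38). Pcsk1 had 7.11 and 6.56 CPM (0.22, adjusted p = 0.246) and Scg2 129 and 138 CPM against 123 and 116 (0.16, adjusted p = 0.351). Nptx2 was at 41.1 and 39.4 CPM against 42.2 and 44.1 (-0.10, adjusted p = 0.527), and Inhba at 1.86 and 1.62 CPM against 1.55 and 1.14 (0.38, adjusted p = 0.329). After correction these 5 were at -0.03 for Homer1, 0.09 for Pcsk1, 0.06 for Scg2, 0.18 for Nptx2 and 0.53 for Inhba.

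Against the home cage, trained TAU VEH mice had 5 of 8 members called higher and 1 lower, where 16.2% of all genes were called higher and 18.2% lower. Libraries of 7 of 8 did not overlap, beside 56.0% of all genes, and the median log2 fold change was 0.49, and -0.01 over all genes. Training, genotype and carrier all differ between these groups, so this is not a training response within THY-Tau22 mice. Homer1 was higher by 0.63 on the log2 scale (standard error 0.088, adjusted p = 0.000397, edgeR) and Pcsk1 by 0.49 (adjusted p = 0.00418). Ptgs2 was higher by 0.48 (adjusted p = 0.00125) and Scg2 (ENSMUSG00000050711, chr1:79431244-79436665, - strand) by 0.29 (adjusted p = 0.0291). Scg2 had 106, 98.4 and 125 CPM in the home cage, and its call was lost without any one of WT VEH_HC replicate 1 or 2 or TAU VEH replicate 1 or 2, with adjusted p between 0.0649 and 0.178. Pcsk1 was lost without TAU VEH replicate 1 (0.42, adjusted p = 0.0646), and with the choroid plexus score as a covariate Pcsk1 (0.46, adjusted p = 0.0581) and Scg2 (0.09, adjusted p = 0.555) were not called. Vgf was lower by 0.36 (adjusted p = 0.00344). With scaling by library size alone Vgf was at -0.20 and not called, while Inhba (0.73, adjusted p = 0.0151) was called higher. Inhba (ENSMUSG00000041324, chr13:16103684-16119044, + strand) was at 0.56 (adjusted p = 0.0544, and 0.0487 without WT VEH_HC replicate 2), and Nptx2 (ENSMUSG00000059991, chr5:145306756-145318347, + strand) at -0.02. In the same comparison 4 of 6 CA1 markers (828 to 1110 CPM in WT VEH_HC and 609 to 647 in TAU VEH, summed), 4 of 6 neocortex and subiculum, 3 of 6 hippocampal pyramidal and granule neuron, 2 of 5 pan-neuronal and 2 of 7 interneuron markers were called lower. Of astrocyte markers 4 of 5 (2640 to 2790 and 3450 to 3500 CPM) and of choroid plexus markers 5 of 14 were called higher. So were 1 of 6 neocortex and subiculum and 1 of 7 interneuron markers. The part of these markers in the result was not tested.

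The correction rearranged this list. Arc (1.13) and Homer1 (0.32, adjusted p = 0.0179) remained called, Pcsk1 (0.23, adjusted p = 0.152), Scg2 (0.12, adjusted p = 0.391) and Ptgs2 (0.14, adjusted p = 0.278) were lost, Vgf turned to 0.11 (adjusted p = 0.23), and Nptx2 (0.29, adjusted p = 0.0269) and Inhba (0.74, adjusted p = 0.0481) were called in their place. By its construction the correction lowered the 4 members with a GC content under the median and raised the 4 above it in each comparison of a trained THY-Tau22 group with a WT group. Which of these values is nearer to the RNA content was not tested.

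**Figure D4:**
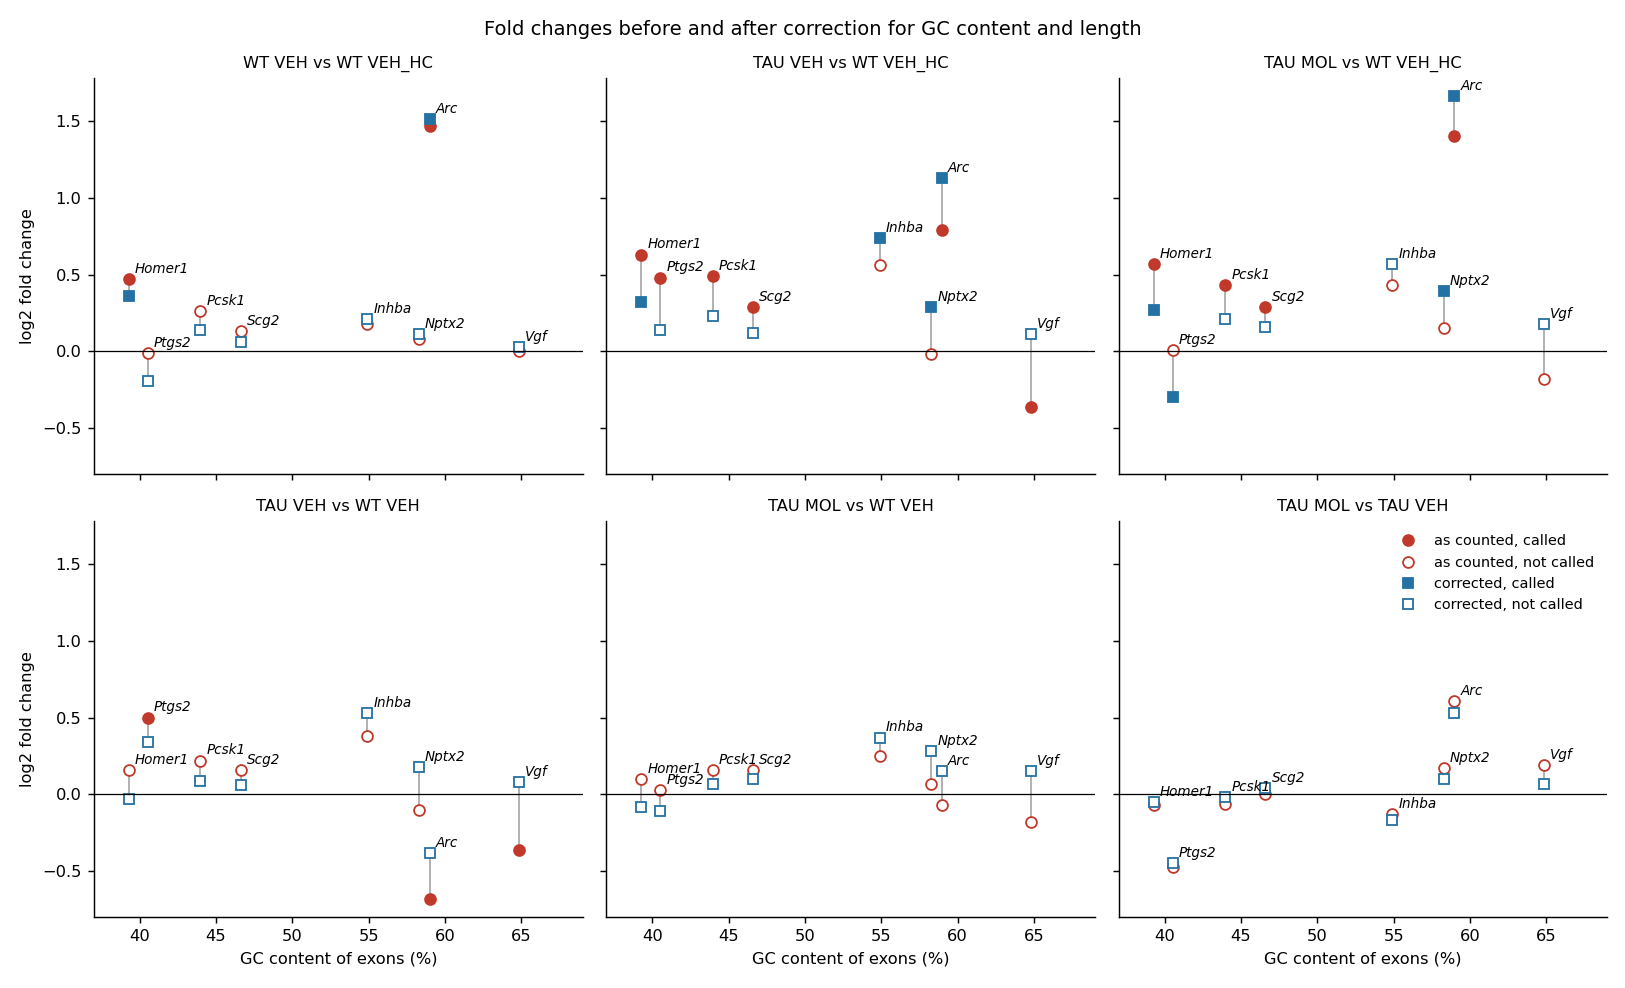
Log2 fold change of each member (y axis) against the GC content of its exons (x axis, percent) in the 6 comparisons of the learning experiment. Red circles are values as counted and blue squares values after correction for GC content and length, filled where called. Arc and Homer1 stay called in the 3 comparisons with the home cage, and no member stays called between TAU VEH and WT VEH.

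Arc in TAU MOL mice was near that of trained WT mice. The TAU MOL libraries had 339 and 423 CPM, one below and one within the range of WT VEH, and both above TAU VEH. Against WT VEH the log2 fold change was -0.07 (95% confidence interval -0.29 to 0.15, adjusted p = 0.766), which turned to 0.15 after correction (adjusted p = 0.629) and to 0.05 with library size alone, and none of the 8 members was called in that comparison, where 0.612% of all genes were called higher and 5.02% lower. Of these 947 genes very few remained when a WT VEH or TAU MOL library was left out, which leaves 1 library in that group. Libraries of 5 of 8 members did not overlap, beside 52.5% of all genes, with log2 fold changes of -0.18 for Vgf (adjusted p = 0.265), 0.07 for Nptx2, 0.16 for Pcsk1, 0.16 for Scg2 and 0.25 for Inhba (adjusted p = 0.62). After correction the 8 members ranged from -0.11 for Ptgs2 to 0.37 for Inhba, with Vgf at 0.15. Of the markers, 7 of 14 for choroid plexus were called lower and 2 of 5 for astrocytes higher. A difference that misses the limits does not show equal levels. The intervals allow for Arc a level between 0.815 and 1.11 times that of WT VEH mice, for Homer1 between 0.923 and 1.24 times and for Ptgs2 between 0.884 and 1.18 times.

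Between TAU MOL and TAU VEH, the comparison of CSP-TTK21 with its carrier, Arc was 1.53-fold higher (log2 fold change 0.61, standard error 0.10, 95% confidence interval 0.39 to 0.83). Its unadjusted p was 7.39e-05 and its adjusted p 0.213 from edgeR, so Arc was not called, and 0% of all genes were called higher or lower, while 1064 genes had an unadjusted p under 0.05. The call depended on the tool and the filter. DESeq2 called 52 genes, with Arc (adjusted p = 3.13e-05) and Ptgs2 (adjusted p = 0.0364) among them, and edgeR called 233 genes, both members included (adjusted p = 1.4e-10 and 0.00358), when no expression filter was applied. Arc was also called on the 4 libraries of these groups alone (adjusted p = 0.0347) and without WT VEH_HC replicate 2 (adjusted p = 0.0391). Over all alternatives the log2 fold change of Arc stayed between 0.44 and 0.76 and its adjusted p ran from 1.4e-10 to 1. The GC and length correction changed it little (0.53, adjusted p = 0.288).

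Ptgs2 had 15.7 and 18.8 CPM in TAU MOL mice, below both TAU VEH libraries. The log2 fold change was -0.47 (standard error 0.093, unadjusted p = 0.000329, adjusted p = 0.254), and -0.45 after correction. Libraries of 5 of 8 members did not overlap, beside 38.9% of all genes, and the median log2 fold change of the members was -0.03, beside 0.01 over all genes. Vgf had 308 and 306 CPM (0.19, adjusted p = 0.778) and Nptx2 44.3 and 46.4 CPM (0.17, adjusted p = 0.833), both above TAU VEH, and Inhba 1.6 CPM in both libraries (-0.13, adjusted p = 0.99), below it. Homer1 (97.7 and 84.8 CPM), Pcsk1 (6.63 and 6.53 CPM) and Scg2 (129 and 139 CPM) overlapped with TAU VEH, and their 95% confidence intervals on the log2 scale were -0.28 to 0.15, -0.31 to 0.19 and -0.21 to 0.22. After correction the 6 members other than Arc and Ptgs2 ranged from -0.17 for Inhba to 0.10 for Nptx2. No gene at all was called in this comparison, so the lack of a called cell type marker does not show a like make-up. Libraries did not overlap for 13 of 14 choroid plexus markers (median log2 fold change 1.17) and 7 of 7 interneuron markers (0.33). The same held for 5 of 6 CA1 markers (0.42) and 4 of 6 CA3 markers (-0.22). Their part in the result was not tested.

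Against the home cage, TAU MOL mice had 4 of 8 members called higher and none lower, where 14% of all genes were called higher and 14.9% lower. Libraries of 6 of 8 did not overlap, beside 53.7% of all genes, and the median log2 fold change was 0.36, and -0.01 over all genes. Here too training, genotype and treatment all differ. Arc was 2.64-fold higher (log2 fold change 1.4, adjusted p = 2.15e-05, edgeR) and Homer1 higher by 0.57 on the log2 scale (adjusted p = 0.00127). Pcsk1 was higher by 0.43 (adjusted p = 0.0103) and Scg2 by 0.29 (adjusted p = 0.0309). Pcsk1 and Scg2 lost their calls without either TAU MOL library, with adjusted p between 0.0588 and 0.209, and after correction (0.21 and 0.16), and Scg2 also without WT VEH_HC replicate 1 or 2. Inhba was at 0.43 (adjusted p = 0.139, and 0.57 after correction), above the home cage range in both libraries, and Ptgs2 at 0.01. Vgf, at -0.18 (0.18 after correction), was called lower without WT VEH_HC replicate 2 (-0.23, adjusted p = 0.0398) and Nptx2, at 0.15, higher with library size alone (0.29, adjusted p = 0.0101) and without WT VEH_HC replicate 3 (0.23, adjusted p = 0.022). After correction Arc was at 1.66 and Homer1 at 0.27, both called, and Nptx2 (0.39, adjusted p = 0.00994) and Ptgs2 (-0.30, adjusted p = 0.0423) were called too. With the choroid plexus score as a covariate Arc was at 1.42 (adjusted p = 0.0885) and no gene was called. Of the markers, 13 of 14 for choroid plexus, 4 of 5 for astrocytes (2640 to 2790 CPM in WT VEH_HC and 3340 to 3660 in TAU MOL, summed) and 3 of 7 for interneurons were called higher, and 3 of 6 for CA3 (291 to 312 and 215 to 217 CPM) and 2 of 5 pan-neuronal markers lower. The part of these markers was not tested.

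The 5 genes most like Arc over the 14 libraries were not members. Likeness was measured as the root mean square difference in log2 CPM, centred on the mean of each experiment, among 13720 genes. They were Nr4a1 (0.28), Egr1 (0.31), Junb (0.31), Fos (0.34) and Dusp5 (0.36), of which the first 4 code for early transcription factors and Dusp5 for a phosphatase of ERK. Nr4a1 ranged from 84.1 to 87.8 CPM in basal WT and from 38.2 to 39.4 in basal THY-Tau22 mice, and was at 53.6 to 62.1 CPM in WT VEH_HC, 123 to 136 in WT VEH, 73.6 to 78.4 in TAU VEH and 95.9 to 120 in TAU MOL. Fos was at 3.97 to 5.30 CPM in WT VEH_HC, 17.1 to 21.3 in WT VEH, 14.4 to 16.0 in TAU VEH and 19.0 to 20.6 in TAU MOL. Among the members the closest to Arc were Pcsk1 (0.67, rank 1739) and Homer1 (0.69, rank 2736), and the farthest Ptgs2 (0.81, rank 12011). A gene that did not vary at all would score 0.73, the spread of Arc itself.

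**Figure D5:**
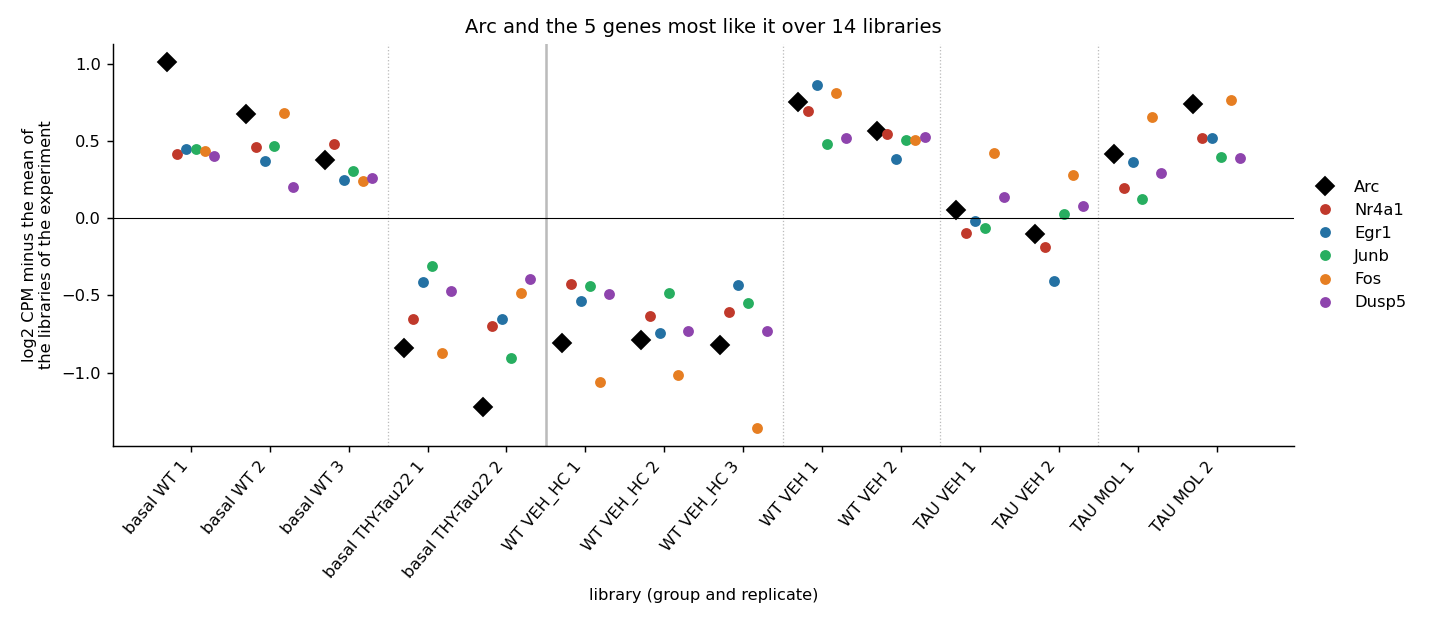
Log2 CPM minus the mean of the libraries of the experiment (y axis) for Arc (black diamonds) and the 5 genes most like it (circles) in each of the 14 libraries (x axis). The solid vertical line separates the experiments and dotted lines the groups. All 6 genes are under 0 in basal THY-Tau22 and WT VEH_HC libraries and above 0 in WT VEH and TAU MOL libraries.

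Of 16 early transcription factor genes, 10 were called higher and none lower in trained WT mice against WT VEH_HC, where 5.35% of all genes were called higher, and 6 were not called, with Jun at -0.37 and Egr3 at -0.11. Egr2 changed by 3.42 on the log2 scale, Fos by 2.00 and Egr1 by 1.22, and 10 were called after correction too, where 490 of 16820 genes were called higher. In TAU VEH mice 8 were called higher (Egr2 2.83, Fos 1.67, Atf3 1.19), beside 16.2% of all genes, and 9 after correction, where 856 of 16820 genes were. In TAU MOL mice 10 were called higher and 1 lower (Egr2 3.52, Fos 2.05, Atf3 1.30), beside 14% and 14.9% of all genes, and 11 higher after correction, where 821 of 16820 genes were. Compared to WT VEH, 7 of 16 were called lower in TAU VEH mice, beside 10.8% of all genes, led by Egr1 (-0.84), Nr4a1 (-0.77) and Egr4 (-0.62), and 3 lower and 1 higher after correction, where 407 of 16820 genes were called lower and 97 higher, when Egr1 was at -0.74 (adjusted p = 0.0434), Nr4a1 at -0.53 (adjusted p = 0.0343) and Egr4 at -0.13 (adjusted p = 0.658). None was called between TAU MOL and WT VEH or TAU VEH. In the basal experiment Nr4a1 (-1.15, adjusted p = 0.016) was the one called, lower in THY-Tau22 mice, where 3 of 16324 genes were called lower in all, and 3 of the 16 were called lower after correction, where 6 of all genes were.

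Of 26 other effector genes, 9 were called higher and none lower in trained WT mice, beside 5.35% and 3.05% of all genes. Arl4d, a small GTPase, changed by 1.07 on the log2 scale, Sgk1, a kinase, by 1.0, and Errfi1, an inhibitor of the EGF receptor, by 0.54, and 8 were called higher after correction, beside 490 of 16820 genes. Against the home cage 10 were called higher and 2 lower in TAU VEH (all genes 16.2% and 18.2%) and 11 higher in TAU MOL mice (all genes 14%), and after correction 9 and 10 higher, beside 856 and 821 of 16820 genes. Between TAU VEH and WT VEH 1 was called higher and 3 lower, beside 3.61% and 10.8% of all genes, with Midn at -0.75 and Arl4d at -0.50, and none after correction. Between TAU MOL and TAU VEH none of the 26 was called.

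The counts for partners and pathways of the members stand beside shares over all genes of 3.61% higher and 10.8% lower between TAU VEH and WT VEH, and of 5.35% and 3.05% in trained WT mice, and nothing particular to these lists was read from them. Of 11 genes for partners of Arc, 1 was called higher and 2 lower in TAU VEH compared to WT VEH, with Camk2a (a kinase that binds Arc) at -0.55, Ube3a (a ubiquitin ligase) at 0.40 and Wasf1 (an actin regulator) at -0.38. Camk2a (-0.49) and Wasf1 (-0.37) were still called after correction and Ube3a (0.24) was not. Of 10 genes for partners of Homer proteins, 3 were called lower in the same comparison, with the scaffolds Shank1 at -0.83 and Shank2 at -0.47, and none lower after correction, when Shank1 was at -0.44 (adjusted p = 0.072) and Shank2 at -0.31 (adjusted p = 0.0529).

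Among 7 pentraxin and AMPA receptor genes, 1 was called higher and 2 lower in trained WT mice, Gria2 (an AMPA receptor subunit) at 0.27, Nptxr (the pentraxin receptor) at -0.69 and Nptx1 at -0.34, and none after correction. Of 10 genes for prohormone processing and granins none was called in trained WT mice. In TAU VEH compared to WT VEH, Pcsk1n, which codes for proSAAS, an inhibitor of the enzyme made from Pcsk1, was lower (-0.62, and -0.38 after correction, adjusted p = 0.0436) and Cadps, a factor of dense core vesicle release, higher (0.37, and 0.33 after correction, adjusted p = 0.0253). Of 13 activin pathway genes, Inha (-0.63) and Smad3 (-0.44) were called lower in trained WT mice, with Inha at -0.64 and still called after correction, and Acvr1c (0.64) higher in TAU VEH than in WT VEH, which was lost after correction (0.46). Of 11 prostaglandin pathway genes none was called in trained WT mice, and Ptges2, a prostaglandin E synthase, was below WT VEH in TAU VEH mice (-0.52, and -0.20 after correction, adjusted p = 0.193). None of these 6 lists held a gene called in the basal experiment or between TAU MOL and TAU VEH.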

How the data were processed

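Poly-A RNA of the dorsal hippocampus was sequenced as single-end reads, 1 library per mouse. Per the labels and the study's methods, the authors called bases with CASAVA 1.8.2, aligned reads to mm9 with TopHat2 2.0.10 and Bowtie2 2.1.0, and counted uniquely aligned reads per gene with HTSeq 0.5.4p3, without strand information from the kit. The deposited tables hold whole-number counts per gene and the counts scaled by 1 factor per library (a signal normalised by the authors with DESeq2), of which the counts were used. Empty lines at the end of the learning table were left out. Trained THY-Tau22 libraries carry the letters C and T in their labels, read here as CSP and CSP-TTK21.

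Counts were fitted with edgeR 4.0.16 (R 4.3.3; TMM scaling, default expression filter, quasi-likelihood F test, two-sided), the basal and the learning table apart. All 9 learning libraries shared 1 estimate of the spread. Replicates varied by a common coefficient of 0.129 (basal table) and 0.084 (learning table). GC content and length came from the GENCODE annotation of mm9 (99.8% of tested genes had a value), and the correction was a loess fit (span 0.3) per library entered as an offset. Log2 CPM for the likeness to Arc used a pseudocount of 1 CPM and genes with a mean of at least 1 CPM. All 8 members were named in each comparison. Of each other list, at most the 3 called genes with the largest absolute change were named, and 5 genes were named as most like Arc. Jun and Egr3 were named besides, as early transcription factor genes that were not called. Part of the result for the partners of Homer proteins is not reported here. The members and the lists were chosen with earlier results of these data known. Alternatives were DESeq2 1.42.0, its size factors, scaling by library size alone, no expression filter, a replicate block, the GC and length correction with and without that block, a choroid plexus score as a covariate, a fit of the 2 groups compared, and leaving out each library. In a group of 2 the last leaves 1 library, so a call lost there does not show that the result rests on the library left out. The scripts were tested on simulated counts. Between 2 replicates of a group the chi-square per gene was at least 8.86, so no library was a copy of another in its group. Libraries of different groups were not compared in this way.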

Additional observations from a re-analysis of the deposited data

Results flagged for a closer look

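For 2 members both THY-Tau22 libraries lay on one side of the WT mean in the basal mice and on the other side in the trained mice. Nptx2 had a log2 fold change of 0.13 in basal and -0.10 in trained mice (TAU VEH compared to WT VEH), a difference of -0.23. Vgf had 0.14 in basal and -0.36 in trained mice, a difference of -0.50. Pcsk1 also changed sign, from -0.23 to 0.22, but its basal THY-Tau22 libraries (6.82 and 10.1 CPM) lay on both sides of the WT mean of 9.90 CPM. The basal values of Nptx2 and Vgf were not called, and after the GC and length correction the trained values were 0.18 for Nptx2 and 0.08 for Vgf, on the same side as the basal ones. The differences were not tested, since the tables were scaled apart, and carrier, training and experiment cannot be told apart in them.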

How the results depend on the processing

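Arc kept its direction in 6 of 7 comparisons under every alternative, the exception being TAU MOL against WT VEH, and none of the members was called in that comparison under any alternative. The numbers of members called were 1, 2, 6, 4, 3, 0 and 0, in the order basal, WT VEH, TAU VEH and TAU MOL against WT VEH_HC, TAU VEH and TAU MOL against WT VEH, and TAU MOL against TAU VEH. Leaving out 1 library gave 0 to 1, 1 to 3, 4 to 6, 2 to 5, 1 to 3, 0 to 0 and 0 to 1 in that order. With the choroid plexus covariate 0 were called in the basal comparison, in WT VEH and TAU MOL against WT VEH_HC and in TAU VEH against WT VEH. Between TAU VEH and WT VEH, 5 were called with library size alone (Homer1, Pcsk1 and Scg2 gained, Vgf lost) and 0 after the GC and length correction. Between TAU MOL and TAU VEH, DESeq2 called 2, edgeR without the expression filter 2, and the fit of those groups alone 1. Where a value changed with a setting, the cause was not tested.

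Whether replicate numbers pair the mice was not settled. The correlation of deviations between same-numbered libraries was -0.14 to 0 over 2 basal pairs and -0.08 to 0.33 over 12 learning pairs. In a group of 2 libraries the deviations mirror each other, so these correlations can neither show nor exclude pairing. With the replicate block, Vgf was at 0.08 in WT VEH and Nptx2 at 0.06 in TAU VEH against WT VEH_HC, Nptx2 was called in TAU MOL against WT VEH_HC (0.23, adjusted p = 0.0256 from edgeR), and no other call on a member changed. With the replicate block and the GC and length correction together, 0 members were called in the basal comparison and between TAU VEH and WT VEH, and 3 in TAU VEH against WT VEH_HC, and 6 in TAU MOL against WT VEH_HC, with Vgf called higher (0.21, adjusted p = 0.0424) and Ptgs2 lower (-0.33, adjusted p = 0.0474), both uncalled as counted. Signs that turned in that fit were Homer1 -0.06 (basal), Vgf 0.06 (WT VEH against WT VEH_HC), Nptx2 0.35 and Vgf 0.14 (TAU VEH against WT VEH_HC), Vgf 0.21 and Ptgs2 -0.33 (TAU MOL against WT VEH_HC), Homer1 -0.04, Nptx2 0.18 and Vgf 0.08 (TAU VEH against WT VEH), and Arc 0.15, Homer1 -0.09, Vgf 0.15 and Ptgs2 -0.11 (TAU MOL against WT VEH).

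After the GC and length correction alone, signs turned for Homer1 -0.03 (basal), Vgf 0.03 (WT VEH against WT VEH_HC), Nptx2 0.29 and Vgf 0.11 (TAU VEH against WT VEH_HC), Vgf 0.18 and Ptgs2 -0.30 (TAU MOL against WT VEH_HC), Homer1 -0.03, Nptx2 0.18 and Vgf 0.08 (TAU VEH against WT VEH), and Arc 0.15, Homer1 -0.08, Vgf 0.15 and Ptgs2 -0.11 (TAU MOL against WT VEH). With the choroid plexus covariate they turned for Homer1 -0.07 and Ptgs2 -0.19 (basal), Nptx2 -0.29, Inhba -0.15, Scg2 -0.62 and Ptgs2 0.14 (WT VEH against WT VEH_HC), Nptx2 -0.08 and Scg2 -0.17 (TAU MOL against WT VEH_HC), Nptx2 0.18 and Vgf 0.09 (TAU VEH against WT VEH), Vgf 0.06 and Ptgs2 -0.03 (TAU MOL against WT VEH), and Scg2 -0.26 and Vgf -0.03 (TAU MOL against TAU VEH). With library size alone they turned for Vgf 0.02 and Ptgs2 0 (WT VEH against WT VEH_HC), Nptx2 0.15 (TAU VEH against WT VEH_HC) and 0.05 (TAU VEH against WT VEH), Arc 0.05 (TAU MOL against WT VEH) and Scg2 -0.02 (TAU MOL against TAU VEH). In the fits of 2 groups they turned for Vgf 0 (WT VEH against WT VEH_HC), Nptx2 0.01 (TAU VEH against WT VEH_HC) and Scg2 -0.01 (TAU MOL against TAU VEH).

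Leaving out 1 library turned signs of uncalled members, with ranges in the basal comparison of -0.54 to 0.05 for Pcsk1, -0.07 to 0.40 for Homer1 and -0.12 to 0.58 for Ptgs2. In WT VEH against WT VEH_HC the ranges were -0.06 to 0.38 for Inhba, -0.04 to 0.01 for Ptgs2 and -0.05 to 0.08 for Vgf, in TAU VEH against WT VEH_HC -0.07 to 0.06 for Nptx2, and in TAU MOL against WT VEH_HC -0.12 to 0.14 for Ptgs2. In TAU MOL against WT VEH they were -0.24 to 0.08 for Arc, -0.01 to 0.20 for Homer1 and -0.11 to 0.15 for Ptgs2, and against TAU VEH -0.19 to 0.07 for Homer1, -0.11 to 0.01 for Pcsk1 and -0.05 to 0.06 for Scg2.

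Over all genes the number called was 4, 1413, 5782, 4865, 2423, 947 and 0 in the order above. DESeq2 called 40 and 52 in the first and last, and edgeR without the expression filter 125, 2686 and 233 in the first 2 and the last and 1590 in TAU MOL against WT VEH. The replicate block gave 37 and 3000 in the first 2. The GC and length correction gave 12, 736, 1780, 1588, 504 and 21 in the first 6, with the block 0, 1671, 1678, 728 and 51 in the basal comparison and the third to the sixth, and the choroid plexus covariate 0, 2783, 0, 0 and 2 in the second to the sixth. Leaving out 1 library gave 1 to 15, 73 to 2798, 3273 to 5985, 2319 to 5269, 915 to 2944, 2 to 1379 and 0 to 15 in the order above. Beyond those named in the results, changes of more than 1.5 times came without THY-Tau22 replicate 1 (15), THY-Tau22 replicate 2 (7), WT replicate 2 (2) or WT replicate 3 (1) in the basal comparison, in WT VEH against WT VEH_HC without WT VEH_HC replicate 1 (614) or 3 (2798), either TAU VEH library (800 and 810) or either TAU MOL library (794 and 793), in TAU VEH against WT VEH_HC without either TAU VEH library (3273 and 3766), and in TAU MOL against WT VEH_HC without either TAU MOL library (2319 and 2405). In TAU MOL against TAU VEH, 15 genes were called without WT VEH_HC replicate 2, 11 without TAU VEH replicate 1 and 1 each without WT VEH_HC replicate 3 or TAU VEH replicate 2. Fits of 2 groups gave 310 in WT VEH against WT VEH_HC, 1490 in TAU MOL against WT VEH and 60 in the last. Scaling by library size alone brought the median of all genes from between -0.01 and 0 to between 0.12 and 0.15 in the 4 comparisons of a trained THY-Tau22 with a WT group, and moved the share of lower calls from 52.9%, 51.6%, 74.9% and 89.1% to 23.5%, 20.6%, 28.4% and 30.1%, and from 36.3% to 25.3% in WT VEH against WT VEH_HC.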

Other observations

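Untrained WT mice were measured in both experiments, in the learning one after saline, and the tables were scaled apart, so the values stand side by side with no test. Arc was at 77.9 ± 17.2 RPKM in basal WT (SD, n = 3) and at 47.2 ± 0.523 in WT VEH_HC (SD, n = 3). Pcsk1 was at 3.06 ± 0.848 and 1.51 ± 0.0429 RPKM, Homer1 at 8.49 ± 0.232 and 5.44 ± 0.149, Scg2 at 72.2 ± 7.41 and 44.1 ± 5.43, and Ptgs2 at 6.70 ± 1.77 and 4.12 ± 0.0774. Vgf was at 99.3 ± 17.9 and 136 ± 12.9 RPKM, Nptx2 at 16.9 ± 2.78 and 16.0 ± 1.48, and Inhba at 0.680 ± 0.226 and 0.596 ± 0.0674, and the libraries of the last 2 overlapped. Among the basal WT libraries Arc varied with a coefficient of variation of 22.1%, against 1.11% among the home cage libraries of the learning experiment.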
